A study of Mus musculus with 2 samples.

Results

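A list of 10 mouse trypsinogen genes was described in 2 RNA sequencing libraries of pancreatic islets. Of these libraries, 1 was from db/db and 1 from db/m animals. The 10 genes were chosen by name (Prss1, Prss2, Prss3, Try4, Try5, Try10, 1810009J06Rik, 2210010C04Rik, Gm10334 and Gm5771), and all 10 were found among the 44713 genes of the count table. At least 1 count was recorded for 18886 genes. The db/db library carried the genotype Lepr-/-, a loss of the leptin receptor that makes mice obese and diabetic, and the db/m library was labelled wild type. Both were labelled C57BL/6, a label that counts per gene cannot check, so whether the copies at this locus are alike in the 2 libraries was not tested. The sources used here state neither age nor sex nor how many animals gave each library. Below, db/db and db/m stand for these libraries. Islets had been freed with collagenase and purified on a Histopaque density gradient, and the RNA had been depleted of ribosomal RNA. The series design names triplicates, but the count table used here held 1 library per group. Without replicates there is no test between the genotypes, and each 95% interval covers counting error only. PCR copies of a molecule are not independent, so the intervals can be too narrow even between these 2 libraries. They compare the libraries and not the genotypes, because each group has 1 library.

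Trypsinogen is the inactive precursor of trypsin. Acinar cells of the exocrine pancreas make it, store it in zymogen granules and release it into the duct, and in the duodenum enteropeptidase cuts off a short activation peptide. The trypsin so formed activates the other digestive proenzymes. The mouse genome holds a cluster of trypsinogen copies in and beside the T cell receptor beta locus, and the protein products of these copies include a cationic trypsinogen, encoded by 2210010C04Rik, and the anionic trypsinogens of Prss2, Try4 and Try5.

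The libraries held 18233695 counts (db/db) and 16271129 counts (db/m). Both were rich in exocrine transcripts, since 20 other digestive enzyme genes took 61.5% of all counts in db/db and 62.3% in db/m. The 10 beta cell markers, which define the labelled islet tissue, were all detected but took 0.166% and 0.147%. Ins2 made up most of their counts, with 20944 of 30178 in db/db and 15757 of 23854 in db/m. The 9 duct markers took 0.0304% and 0.0383%, and 6 immune markers took 0.000773% and 0.000522%. Lepr had 3 counts in db/db and 4 in db/m. These counts are few, and the genotype label was not checked. In RNA from a whole preparation, fewer cells of a type and less RNA per cell cannot be told apart.

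As a family, trypsinogen transcripts were among the most abundant in both libraries and differed little in sum. The 10 genes together took 12.58% of all counts in db/db (2293837 counts, 95% exact binomial 12.56% to 12.60%) and 11.94% in db/m (1942948 counts, 11.93% to 11.96%). As CPM (counts relative to library size, here scaled with edgeR's trimmed mean of M values, TMM), the sums were 118392 in db/db and 126885 in db/m. The ratio of db/db over db/m was 0.933 (0.931 to 0.935) with TMM scaling and 1.05 with total counts, so the direction of the sum depended on the scaling. Total counts make every log2 ratio larger by 0.175, and the median log2 ratio of all compared genes was 0.02 with TMM and 0.20 with total counts. Of 32 other genes averaging 1000 CPM or more, those nearest to the summed family in log2 ratio (-0.10) were Ctrc (-0.12), Pdia2 (-0.13) and Rnase1 (-0.07), a likeness that rests on 2 libraries.

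The family fell into an abundant and a minor group, separated by a wide gap in counts. Abundant was taken as at least 1% of the family's counts in both libraries, which held for 2210010C04Rik, Try4, Prss2 and Try5. These 4 genes took 99.5% of the trypsinogen counts in db/m (99.49% to 99.51%) and 94.4% in db/db (94.39% to 94.45%). The other 6 genes took 0.497% in db/m (9647 counts, 0.487% to 0.507%) and 5.58% in db/db (128085 counts, 5.55% to 5.61%). Try10, Gm10334 and 1810009J06Rik stayed under 1% in both, whereas Prss1, Prss3 and Gm5771 were under 1% in db/m only. Nearest to the limit in db/db were Prss1, just above it with 1.15%, and Try10, just below it with 0.858%. Shares within a library do not depend on the scaling between libraries. They are shares of counts and not levels per transcript length.

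**Figure D1:**
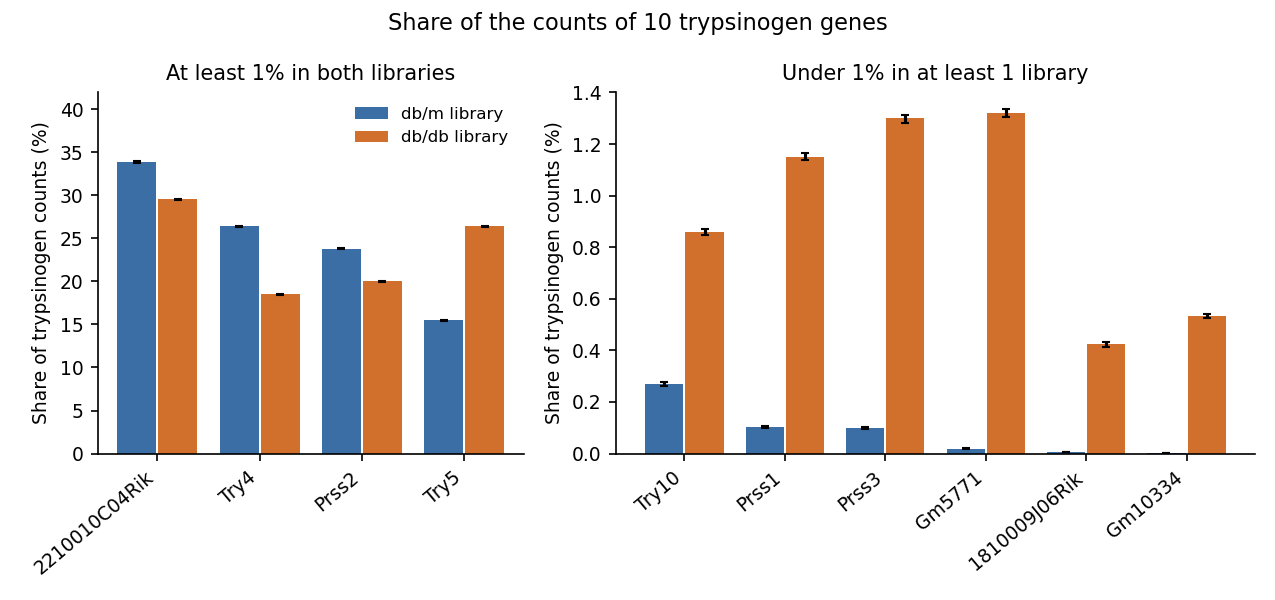
Share of the summed counts of the 10 trypsinogen genes taken by each gene (percent, axes from 0, different ranges in the 2 panels) in db/m (blue) and the db/db library (orange), with exact 95% binomial intervals as error bars. The 4 abundant genes on the left lie between 15.5% and 33.9%, and each of the 6 minor genes on the right has a larger share in db/db.

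Of the 10 genes, 6 were called higher in db/db, 0 were called lower and 4 were neither. A gene was called when its ratio was at least 2-fold, its mean unscaled CPM at least 1 and its counting interval excluded 1. By the same rule 3.83% of 10300 compared genes were higher and 4.04% were lower. With total counts the same 6 of 10 were higher and 0 lower, against 5.48% and 2.69% of all compared genes. A limit of 4-fold left 5 higher, all but Try10, against 0.757%. A limit of 1.5-fold gave 7 higher, now with Try5, and 1 lower, Try4, against 8.63% and 8.87%. All 10 trypsinogen genes passed the filter on low counts, and their median log2 ratio was 2.48 against 0.02 for all compared genes. The 6 higher genes were the 6 minor genes, with a median log2 ratio of 4.84 and a range of 1.58 to 7.85, and the 4 genes in neither class were the abundant ones, with a median of -0.32 and a range of -0.61 to 0.67. The split into groups is not independent of the ratios. Prss1, Prss3 and Gm5771 count as minor through their low share in db/m alone, so the medians of the groups are a description and no support for a difference between them. Nearest to the 2-fold limit were Try10 above it (2.98-fold) and Try5 below it (1.59-fold).

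**Figure D2:**
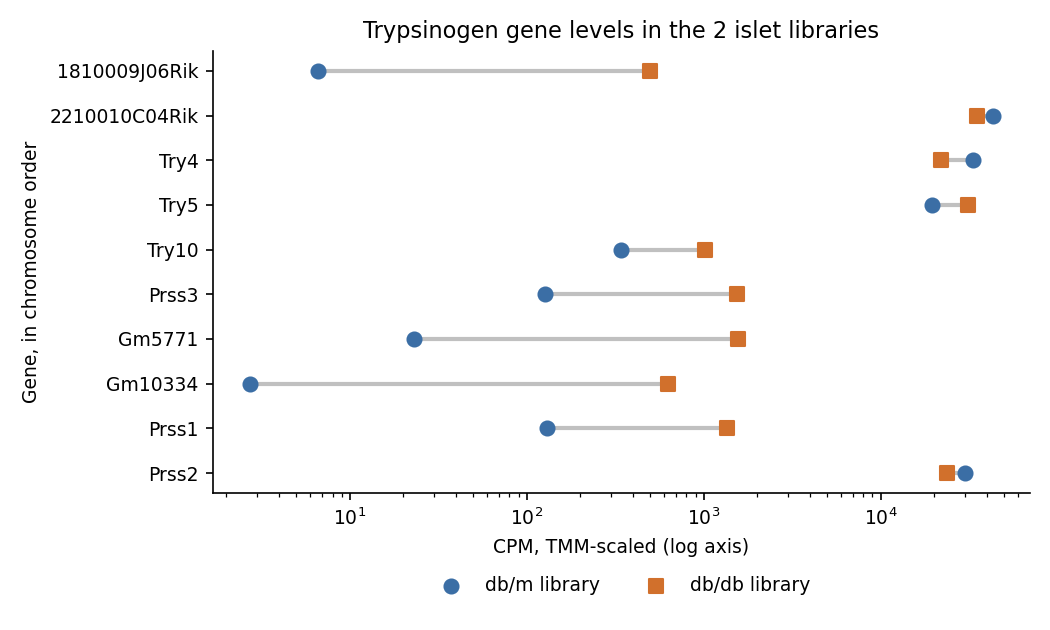
Level of each trypsinogen gene in CPM with TMM scaling (log axis) in db/m (circles) and the db/db library (squares), with the genes in chromosome order from top to bottom and 1 library per group, so no error bars. The 6 minor genes range from 2.74 to 340 CPM in db/m and from 501 to 1564 CPM in db/db, and the 4 abundant genes lie between 19651 and 42972 CPM in both.

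The regions upstream of Prss1, Gm5771, Prss3 and Gm10334 are shown because they form near-identical pairs, while the counts of the genes within a pair did not keep the same proportion. Sequences from RefSeq (GRCm38.p6) matched 7 of the 10 genes by symbol, all but Try5, Try10 and 1810009J06Rik. Printed here are the 250 bases before the annotated start of 4 minor and 2 abundant genes, 5′ to 3′ on the strand of the gene. Capitals mark TATAAA (the core of a TATA box) and CACCTG on either strand, the E-box form that the acinar factor Ptf1a and its partners can bind.
Prss1: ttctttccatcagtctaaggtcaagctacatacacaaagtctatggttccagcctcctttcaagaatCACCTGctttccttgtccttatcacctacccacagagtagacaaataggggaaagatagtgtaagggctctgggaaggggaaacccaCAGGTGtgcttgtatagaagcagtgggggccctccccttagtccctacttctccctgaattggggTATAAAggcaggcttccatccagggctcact
Gm5771: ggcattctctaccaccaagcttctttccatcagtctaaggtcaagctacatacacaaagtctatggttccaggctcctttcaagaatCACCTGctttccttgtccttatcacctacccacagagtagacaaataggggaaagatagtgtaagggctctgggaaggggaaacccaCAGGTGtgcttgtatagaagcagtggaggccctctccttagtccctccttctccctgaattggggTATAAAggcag
Prss3: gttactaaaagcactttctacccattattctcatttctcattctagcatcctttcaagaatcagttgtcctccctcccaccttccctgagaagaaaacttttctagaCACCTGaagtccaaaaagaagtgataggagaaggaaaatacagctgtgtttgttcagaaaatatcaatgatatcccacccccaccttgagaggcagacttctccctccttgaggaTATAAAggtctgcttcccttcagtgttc
Gm10334: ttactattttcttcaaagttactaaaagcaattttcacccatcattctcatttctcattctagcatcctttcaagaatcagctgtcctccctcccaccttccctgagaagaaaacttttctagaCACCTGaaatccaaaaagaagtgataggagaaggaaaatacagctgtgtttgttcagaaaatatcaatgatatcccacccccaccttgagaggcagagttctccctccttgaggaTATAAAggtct
Prss2: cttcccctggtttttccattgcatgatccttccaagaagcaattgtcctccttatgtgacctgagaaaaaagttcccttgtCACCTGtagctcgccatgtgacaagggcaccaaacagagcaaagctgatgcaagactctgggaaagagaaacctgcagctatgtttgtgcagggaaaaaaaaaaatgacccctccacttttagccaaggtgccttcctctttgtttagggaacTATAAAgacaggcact
2210010C04Rik: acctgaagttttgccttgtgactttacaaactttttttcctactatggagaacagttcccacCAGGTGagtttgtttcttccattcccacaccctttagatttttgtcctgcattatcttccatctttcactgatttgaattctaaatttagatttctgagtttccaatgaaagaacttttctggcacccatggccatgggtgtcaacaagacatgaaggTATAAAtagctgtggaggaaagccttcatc
The windows lie at chr6:41458680-41458929 (Prss1, plus strand), chr6:41392106-41392355 (Gm5771, plus), chr6:41377614-41377863 (Prss3, minus), chr6:41446098-41446347 (Gm10334, minus), chr6:41521526-41521775 (Prss2, plus) and chr6:41035510-41035759 (2210010C04Rik, minus).

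Aligned with free ends, the Prss1 and Gm5771 windows were identical in 226 of 230 columns (98.3%), and the Prss3 and Gm10334 windows in 226 of 233 (97.0%). The other 19 of the 21 pairs among the 7 matched genes, Try4 included, ranged from 52.6% to 70.9%, with the highest of these for Try4 and Prss1. TATAAA was present in 7 of 7 windows against 12.4% of all 32851 windows of the same length in the table, and CACCTG in 7 of 7 against 17.2%. Both strands were searched, and the 2 motifs do not overlap each other in these windows. Both motifs together occurred in 1.85% of all windows. The first base of TATAAA lay between 31 bases (Prss1 and Try4) and 11 bases (Gm5771 and Gm10334) before the annotated start. Within each near-identical pair the windows aligned without gaps. The different distances inside a pair (31 and 11 for Prss1 and Gm5771, 28 and 11 for Prss3 and Gm10334) thus follow the annotated starts. TTTCCC, also part of the composite site of Ptf1a complexes, was present in Gm5771, Prss1 and Prss2, 3 of 7 windows, against 21.9% of all windows. The 7 windows belong to related genes and include the near-identical pairs, so they are not independent sequences. These matches are descriptions of letters, and no binding was measured.

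**Figure D3:**
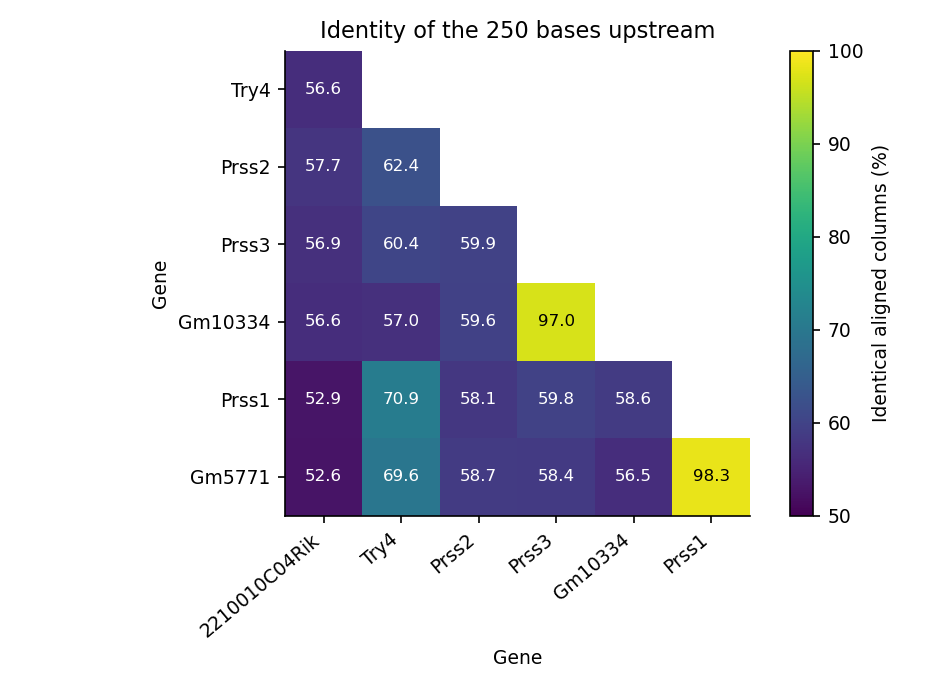
Identity between the 250-base upstream windows of 7 trypsinogen genes, as the percentage of identical columns between the ends of each alignment, with colour and printed value giving the same quantity. The pairs Prss1 and Gm5771 (98.3%) and Prss3 and Gm10334 (97.0%) stand above all others, which reach at most 70.9%.

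Among the abundant genes, 2210010C04Rik, the cationic trypsinogen (chromosome 6, 41030268 to 41035509 in GRCm38.p6), had the most counts in both libraries. It had 678170 counts in db/db and 658023 in db/m, or 35002 and 42972 CPM, and its share of the family was 29.6% and 33.9%. The ratio was 0.815 (0.812 to 0.817), lower in db/db but far from the 2-fold limit. It was the 7th most abundant gene of the whole table in either library.

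Prss2, an anionic trypsinogen (41521776 to 41525079), was the third of the family in both libraries. It had 457994 counts (db/db) and 461906 counts (db/m), or 23638 and 30165 CPM, with shares of 20.0% and 23.8% and a ratio of 0.784 (0.780 to 0.787). Prss2 and 2210010C04Rik lie near opposite ends of the cluster and had ratios close to each other.

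Try4 and Try5 are direct neighbours (41302272 to 41305533 and 41311232 to 41314710) and had opposite ratios. Try4 had 423747 counts in db/db and 512462 in db/m, or 21871 and 33466 CPM, a ratio of 0.654 (0.651 to 0.656). Try5 had 605841 and 300910 counts, or 31269 and 19651 CPM, a ratio of 1.59 (1.58 to 1.60). So Try5 was 1.43 times Try4 in db/db (1.42 to 1.44) and 0.587 times Try4 in db/m (0.585 to 0.590), and they exchanged the second and the fourth place in the order of counts. The Try4 level was 11596 CPM lower and the Try5 level 11618 CPM higher in db/db. Their sum, taken after the values were seen, was 53140 CPM in db/db and 53117 CPM in db/m. The ratio of the sums was 1.0004 (0.9975 to 1.0033), and 1.13 with total counts. How reads matching both genes were counted is not given, and the part of shared reads in these values was not tested. Each neighbouring pair in the order of the abundant genes differed by more than counting error in both libraries, the closest being Prss2 over Try4 in db/db (1.08-fold) and Try4 over Prss2 in db/m (1.11-fold).

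The minor genes were not minor to the same degree in db/m, and were much closer to each other in db/db. From the highest to the lowest of the 6, counts spanned 124-fold in db/m (5212 for Try10 to 42 for Gm10334) and 3.12-fold in db/db (30293 for Gm5771 to 9702 for 1810009J06Rik). The order changed with it. In the db/m library it ran Try10, Prss1, Prss3, Gm5771, 1810009J06Rik, Gm10334, and in db/db Gm5771, Prss3, Prss1, Try10, Gm10334, 1810009J06Rik. Only Prss1 and Prss3 in db/m were neighbours whose counts did not differ beyond counting error (1.03-fold, 0.968 to 1.10). Summed, the 6 genes had 6611 CPM in db/db and 630 CPM in db/m, a ratio of 10.5 (10.3 to 10.7).

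Gm10334 (41442214 to 41446097) is a protein-coding trypsinogen copy in the table's own gene class. It had 12237 counts in db/db and 42 in db/m, or 632 and 2.74 CPM. The ratio of 230 (170 to 320) had the highest lower bound of all 10300 compared genes, although the interval is wide because of the 42 counts. Gm10334 ranked 46th by counts among all genes of the db/db library and 7904th in db/m.

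1810009J06Rik (40964772 to 40968427) lies at the other end of the cluster, apart from the remaining minor genes. It had 9702 counts (db/db) and 102 counts (db/m), or 501 and 6.66 CPM, a ratio of 75.2 (61.9 to 92.3). Its share of the family was 0.423% in db/db and 0.00525% in db/m.

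Gm5771 (41392356 to 41397256), whose upstream window nearly equals that of Prss1, had 30293 counts in db/db and 353 in db/m. These were 1564 and 23.1 CPM, a ratio of 67.8 (61.1 to 75.5). Its share of the family was 1.32% and 0.0182%, which made it the highest of the minor genes in db/db and the third from the bottom in db/m.

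Prss3 (41373759 to 41377613) had 29753 and 1939 counts, or 1536 CPM in db/db and 127 CPM in db/m. The ratio was 12.1 (11.6 to 12.7). Prss1 (41458930 to 41463786) was close to Prss3 throughout, with 26419 and 1999 counts, 1364 and 131 CPM and a ratio of 10.4 (9.98 to 10.9). Prss1 made up 20.6% of the counts of the 6 minor genes in db/db and 20.7% in db/m.

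Try10 (41354105 to 41357944) was the minor gene with the smallest difference. It had 19681 counts in db/db and 5212 in db/m, or 1016 and 340 CPM, a ratio of 2.98 (2.89 to 3.08). Its share of the counts of the 6 minor genes was 15.4% in db/db and 54.0% in db/m.

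Within the pairs of near-identical upstream sequence, the proportions of the copies differed between the libraries. Prss3 had 46.2 times the counts of Gm10334 in db/m (34.0 to 64.3) and 2.43 times in db/db (2.38 to 2.48). Prss1 had 5.66 times the counts of Gm5771 in db/m (5.05 to 6.36) and 0.872 times in db/db (0.858 to 0.887). Sums do not depend on how reads were split inside a pair. They can still depend on reads left uncounted or shared with genes outside the pair, which was not tested. As sums, Prss3 with Gm10334 had a ratio of 16.8 (16.0 to 17.5) and Prss1 with Gm5771 a ratio of 19.1 (18.3 to 19.9). Only the upstream windows of these copies were compared, and the likeness of their transcripts was not. The sources used here do not say how reads matching several copies were counted. The value of a single copy is therefore uncertain, and the part of shared reads in these ratios was not tested.

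The order along chromosome 6 set most minor genes side by side. The 10 genes span 560 kb (40964772 to 41525079). Try10, Prss3, Gm5771, Gm10334 and Prss1 follow each other over 110 kb, with Try4 and Try5 on one side and Prss2 on the other, and no abundant member lies between them. These 5 adjacent genes had 118383 counts in db/db and 9545 in db/m, a summed ratio of 9.802 (9.600 to 10.01). Of 38 other genes of the table within the span, most of them T cell receptor segments, 7 had any count. The pseudogene Gm5409 (synonym Try10l) lies between Gm5771 and Gm10334 and was picked out afterwards. It had 1003 and 330 counts, a ratio of 2.40 (2.12 to 2.73). Gm2663, a protein-coding gene between 1810009J06Rik and 2210010C04Rik, had 7551 and 71 counts, a ratio of 84.1 (66.6 to 108). Neither Gm5409 nor Gm2663 was among the 10 listed genes, so both are outside the family sums and shares given above. Their likeness to the listed trypsinogens was not tested. The other 5 had at most 3 counts in either library. Gm4744, a pseudogene outside the span, had 119 and 206 counts and was 2.19-fold lower in db/db (1.74 to 2.77). Prss37, Prss58 and 1700074P13Rik, also outside the span, had 0 counts in both libraries. Of the list of 10 locus neighbours, 5 were in the table and 2 were compared, with Gm2663 called higher and Gm4744 lower.

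**Figure D4:**
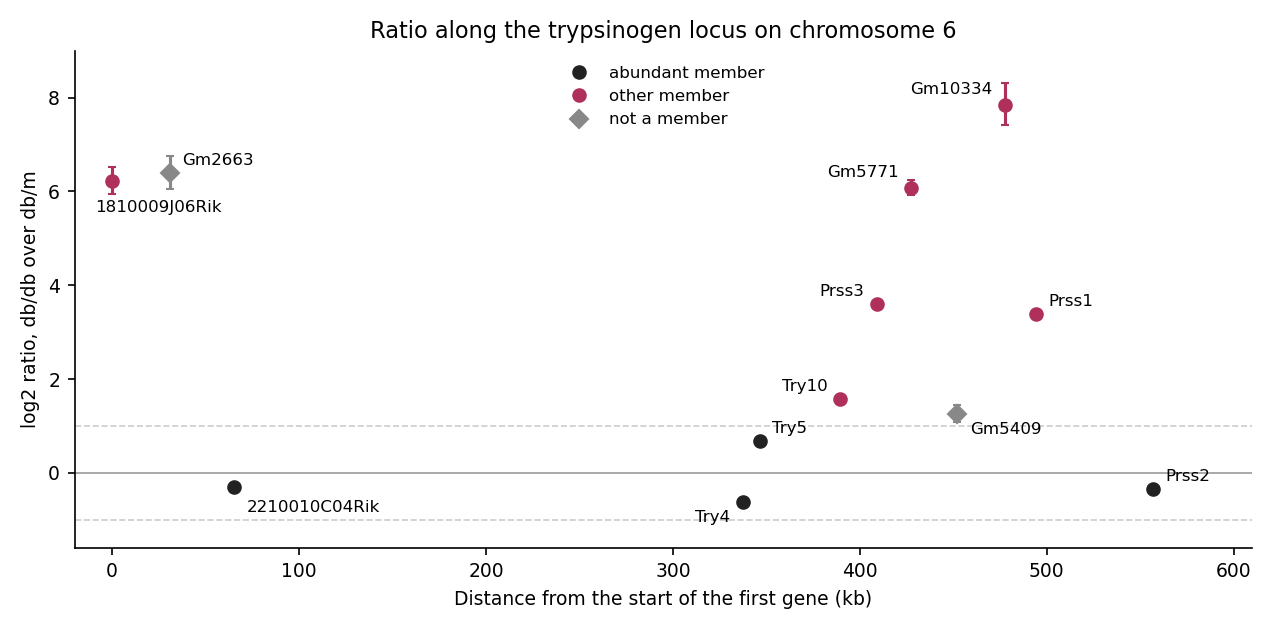
Log2 ratio of db/db over db/m for genes of the trypsinogen locus with at least 100 counts in all, by the distance of their start from that of 1810009J06Rik in kb, with 95% counting intervals and dashed lines at the 2-fold limits. Abundant members lie between -0.61 and 0.67, and the 5 adjacent minor genes between 389 and 494 kb lie between 1.58 and 7.85.

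Ranked by the lower bound of the ratio, Gm10334 was 1st, Gm2663 2nd, 1810009J06Rik 3rd, Gm5771 4th, Prss3 8th and Prss1 9th of the 10300 compared genes. Between 4th and 8th were Aldh1a3, Cps1 and Pappa2.

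**Figure D5:**
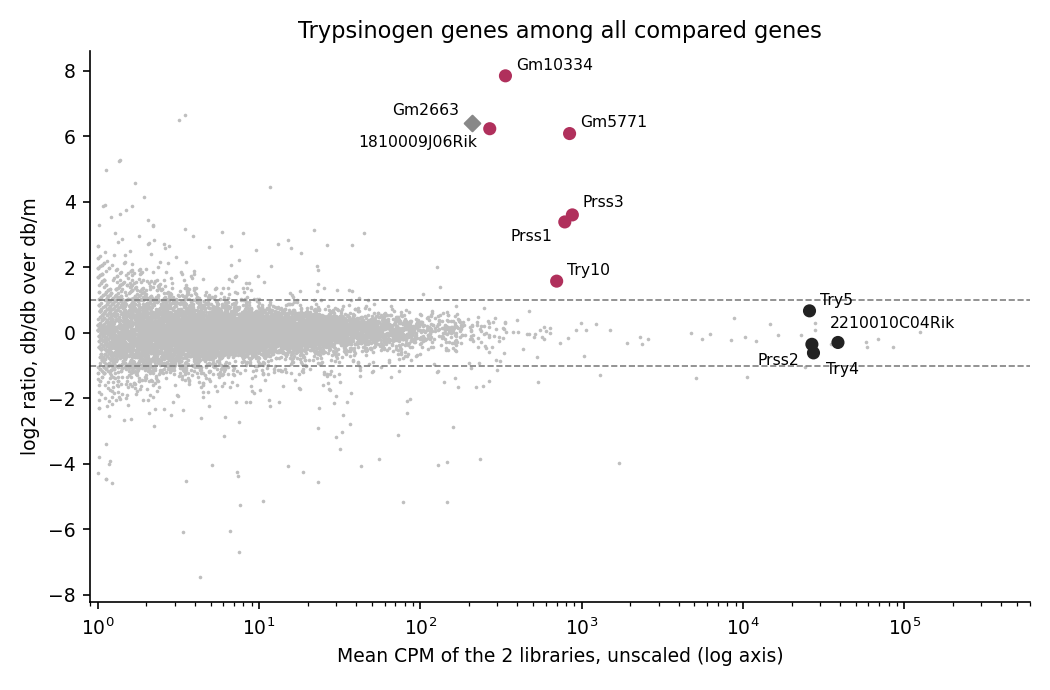
Log2 ratio of db/db over db/m against the mean unscaled CPM of both libraries (log axis) for the 10300 compared genes (grey), with the abundant trypsinogen genes in black, the minor ones in red and dashed lines at the 2-fold limits. Gm10334, 1810009J06Rik, Gm5771, Prss3 and Prss1 lie at 3.38 or more, and so does the neighbour Gm2663, drawn as a grey diamond.

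The minor trypsinogens were set apart partly by low shares in db/m, so a contrast with them is a description only. Other digestive enzyme genes had ratios closer to 1, narrowly so for Pla2g1b (log2 ratio -1.51) beside Try10 (1.58). Of 20 measured, 0 were called higher and 3 lower (Pla2g1b, Amy2a5 and Amy2b, named because they are the only calls), and 17 were neither, with a median log2 ratio of -0.18 and a range of -1.51 to 0.28. The call of Amy2a5, an amylase gene, was lost with total counts, where its ratio was 0.507 in place of 0.449. The most abundant were Ctrb1, a chymotrypsinogen (1.02, 1.01 to 1.02), Pnlip, pancreatic lipase (0.735, 0.733 to 0.737), Cpa1, a carboxypeptidase (0.886, 0.883 to 0.888) and Cela2a, an elastase (0.743, 0.741 to 0.745). The abundant trypsinogens, from 0.654 to 1.59, lay partly inside this range. The summed ratio of the 20 enzymes was 0.874 (0.874 to 0.875), beside 0.885 (0.884 to 0.887) for the 4 abundant trypsinogens.

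Genes of trypsinogen activation and inhibition, a list that also holds cathepsin inhibitors (Cst3, Cstb), the calcium receptor gene Casr and other genes linked to these steps less directly, were called in 0 of 11 compared cases, and their median log2 ratio was 0.02 with a range of -0.70 to 0.62. The list held 23 genes, of which 22 were in the table. Chymotrypsin C (Ctrc), which also counts as a digestive enzyme, had a ratio of 0.922 (0.916 to 0.928). Serpini2, a pancreatic serpin, had a ratio of 0.618 (0.605 to 0.632). The lysosomal cathepsin L (Ctsl), which inactivates trypsinogen, had a ratio of 1.14 (1.08 to 1.20), and cathepsin D (Ctsd) 1.45 (1.37 to 1.54). Spink3, the trypsin inhibitor of acinar cells, had 1930 and 2046 counts, a ratio of 0.746 (0.700 to 0.794), and cathepsin B (Ctsb), which can activate trypsinogen, had 1755 and 900 counts, a ratio of 1.54 (1.42 to 1.67). Both fell outside the 4 most abundant and were chosen after their values were seen. Enteropeptidase (Tmprss15), an enzyme of the duodenum, had 1 count in db/db and 0 in db/m, and was also added by hand.

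Regulators of the acinar program were called in 0 of 9 cases, with a median log2 ratio of -0.29 and a range of -0.96 to 0.36. Xbp1, a factor of secretory cells, had a ratio of 0.558 (0.536 to 0.581), Rbpjl, the partner of Ptf1a, 1.12 (1.06 to 1.18), Bhlha15, a factor of granule-bearing secretory cells, 1.28 (1.21 to 1.36) and the nuclear receptor gene Nr5a2 0.821 (0.765 to 0.880). Ptf1a itself, the factor whose E-box form is capitalised above, had 247 and 380 counts, a ratio of 0.514 (0.436 to 0.605) just inside the 2-fold limit, and was added after its values were seen. Among 10 beta cell markers 0 were higher and 6 lower, where 3.83% and 4.04% of all compared genes were so called. Among 8 compared duct markers 0 were called, and among 2 compared immune markers 1 (Lyz2, named as the only call) was higher. The part of cell composition in the trypsinogen ratios was not tested.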

How the data were processed

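RNA of mouse islets was read in 2 libraries, 1 per group, grouped by title and genotype label, with 18233695 counts (db/db) and 16271129 counts (db/m). HISAT2 2.0.4 and the builds mm10 and GRCm38 are named in the submitters' processing notes. The authors deposited raw counts per gene as whole numbers. How they counted (program, annotation, strand, reads matching several places) was not given in the sources used here. Scaling used TMM (edgeR 4.0.16, R 4.3.3), so that 1 count is worth 0.0516 CPM (db/db) or 0.0653 CPM (db/m). Ratios carry Clopper-Pearson 95% intervals on the db/db share of both counts (scipy 1.17.1, numpy 2.4.6, pandas 2.3.3, Python 3.11.15), which give the precision of counting only. The calling code was checked on counts simulated with counting error alone. That check cannot speak to variation between animals, PCR copies or shared reads. Upstream windows were aligned with Biopython 1.88 (match 1, mismatch -1, gap opening -2, extension -0.5, free ends), and figures were drawn with matplotlib 3.10.9. Named genes are all 10 members, at most 4 genes of each other list with the highest mean CPM, locus neighbours with counts and the 3 genes nearest to the summed family in log2 ratio. Other genes named, such as single calls of a list, were chosen after their values were seen. The genes and lists were chosen with earlier results of these data known. Alternatives were 3 other scalings (total counts, DESeq2 1.42.0 size factors, total counts without digestive enzymes), other filters, fold limits and share limits, and other denominators. Shares per transcript length and shared stretches of transcripts were not used here.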

Additional observations from a re-analysis of the deposited data

How the results depend on the processing

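The 6 higher calls among the trypsinogen genes did not change in number under any of the 3 other scalings, the 2 filters or an interval wholly beyond 2-fold. They were 5 with a limit of 4-fold and 7 with 1.5-fold, where 1 member (Try4) was also lower. The summed family ratio was 1.05 with total counts and 1.05 with total counts without digestive enzymes, against 0.933, and 0.928 with DESeq2 size factors. The ratios of 2210010C04Rik, Prss2 and Try4 stayed under 1 and that of Try5 above 1 in all 4 scalings. The sum of the 4 abundant genes, added after the data were seen, had a ratio of 0.9997 with total counts against 0.885. The share of the family in db/db and db/m was 12.6% and 12.0% without mitochondrially encoded genes, and 17.0% and 16.1% of digestive enzyme counts. It was 12.6% in db/db with the locus neighbours added. With a limit of 0.1% for abundant members 6 were abundant, among them Prss1 and Try10, 4 lay between and 0 were rare, so that the genes called higher were then no longer the ones outside the abundant class. With 5% 4 were abundant, 6 were rare and 0 lay between. The 1 lower locus neighbour (Gm4744) became 0 with total counts, total counts without digestive enzymes, a filter of 10 CPM, a 4-fold limit or an interval beyond 2-fold. Of the activation and inhibition list, 1 was higher without a filter and 1 higher and 1 lower at 1.5-fold. Of digestive enzymes 2 in place of 3 were lower with total counts and with total counts without digestive enzymes, where Amy2a5 was lost, and 0 at 4-fold, and of acinar regulators 3 were lower at 1.5-fold. Apart from what an alternative's own limit sets, the cause was not tested. Depth limits Gm10334 most, with 42 counts in db/m. Shares per kb of transcript and the comparison of transcript stretches were not run. No paired analysis was possible because each group has 1 library, although both titles carry the number 4.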
